A study of Mus musculus with 6 samples.

Results

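The genes described here encode the subunits and activators of the mouse proteasome, including the subunits that interferon induces, and were measured by RNA sequencing of colon epithelial cells. The set was fixed as a list of 38 gene symbols. Each of the 38 was found under 1 Ensembl identifier among the 52550 identifiers of the series, and all 38 passed the filter on low values. All mice carried the Apc Min/+ genotype, in which 1 copy of the tumour suppressor Apc is truncated, and no wild-type mice entered the comparison. The mice were males of 5 to 6 weeks, given by oral gavage on alternate days either atorvastatin at 20 mg/kg, a statin that blocks cholesterol synthesis, or the vehicle, 2% Tween 80 (control). There were 3 libraries in each group, numbered as replicates. The labels do not say whether each library came from a separate mouse, so the p-values measure the spread between these libraries, which may be technical.

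The proteasome degrades proteins marked with ubiquitin. Its core particle is a barrel of alpha rings, which gate the entry, around beta rings, in which 3 subunits cut peptide bonds: Psmb6, Psmb7 and Psmb5. Interferon gamma induces a second set of catalytic subunits, Psmb9, Psmb10 and Psmb8, which take their places in newly built particles and form the immunoproteasome, whose peptides are well suited to loading on MHC class I. A regulatory particle of ATPases (Psmc genes) and non-ATPases (Psmd genes) recognizes and unfolds substrates. The activator PA28, made of the interferon-inducible Psme1 and Psme2, can cap the core instead, as can the activators encoded by Psme3 and Psme4. In the gut, immunoproteasome subunits are found in lymphocytes at a steady level and in epithelial cells under interferon.

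Values are FPKM, fragments per kilobase of gene scaled to the mapped fragments of the library, as read from the values, since the headers name no unit. Levels of different genes are therefore compared per length. The libraries' FPKM totals ran from 407857 to 430832, and 11456 to 11655 genes per library reached 1 FPKM. Differences are log2 fold changes of log2(FPKM + 1), atorvastatin minus control, which understate the change of low genes. The ± after a fold change is its standard error, and the ± after an FPKM mean is the SD of 3 libraries. A gene passed when limma's Benjamini-Hochberg adjusted p, over 11644 genes, was under 0.05. Of all genes tested, 0.404% passed. Epithelial markers were abundant, with Epcam at 479 to 565 FPKM and the keratin gene Krt8 at 2625 to 2871 FPKM over the 6 libraries, and most leukocyte markers were low, as given below.

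Of the 38 proteasome genes, 1 passed, Psmb8, which was lower with atorvastatin (0.249% of all genes tested were called lower). All 5 interferon-inducible genes were lower in every atorvastatin library than in any control library, with mean differences of -43.4% to -12.4% of the control mean, while the other 33 genes had differences of -5.57% to 16%. Groups that did not overlap in that direction were found for 6.05% of all genes tested. The median log2 fold change was -0.221 over the 5 inducible genes, 0.069 over the 3 constitutive catalytic genes and 0.042 over the other 30, beside 0.018 over all genes tested. No member passed as higher in limma's test, 1 had an unadjusted p under 0.05 in that direction (Psmd8), and 0.155% of all genes tested were called higher.

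Psmb8 encodes the inducible subunit with chymotrypsin-like activity (beta5i; ENSMUSG00000024338, GRCm38 chromosome 17, 34197721 to 34201454, plus strand). Its levels were 10.1, 9.60 and 10.1 FPKM in control replicates 1 to 3 and 5.04, 5.89 and 5.95 FPKM in atorvastatin replicates 1 to 3. The groups lay far apart relative to their spread, and no library fell between 5.95 and 9.60 FPKM. The mean fell from 9.94 ± 0.296 to 5.62 ± 0.508 FPKM (n = 3 each), a fold change of the means of 1.77, and the log2 fold change was -0.73 ± 0.07 (95% interval -0.89 to -0.56, limma adjusted p = 0.0184). In bulk samples such as these, fewer cells of a type and less RNA per cell cannot be told apart. Ranked by p, Psmb8 was number 7 of the 11644 genes. Leaving out control replicate 1 ended the call (-0.72, limma adjusted p = 0.073), as did testing with no filter on low values (-0.73, adjusted p = 0.136).

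Psmb9 encodes the inducible subunit that replaces Psmb6 (beta1i; ENSMUSG00000096727, chromosome 17, 34181987 to 34187764, minus strand). It was the lowest of the 38 genes, at 3.21, 2.54 and 3.06 FPKM in the controls and 2.29, 1.87 and 2.31 FPKM with atorvastatin. The atorvastatin libraries were all below control replicate 2, the lowest control, but replicates 1 and 3 lay close to it. The log2 fold change of -0.32 ± 0.09 (95% interval -0.54 to -0.10) did not pass (limma adjusted p = 0.237). Its exons overlap those of Tap1 on the other strand by 212 bases, and the strand setting of the counting is not given in the sources used here, so a part of its reads cannot be assigned with certainty.

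Psmb10 encodes the inducible subunit that replaces Psmb7 (beta2i; ENSMUSG00000031897, chromosome 8, 105935735 to 105938444, minus strand). It had 34.0, 32.2 and 31.7 FPKM in the controls and 27.9, 28.7 and 28.8 FPKM with atorvastatin. The groups were narrow and did not overlap, and the step between them was small. The log2 fold change was -0.19 ± 0.05 (95% interval -0.31 to -0.07, limma adjusted p = 0.198), and the gene did not pass.

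**Figure D1:**
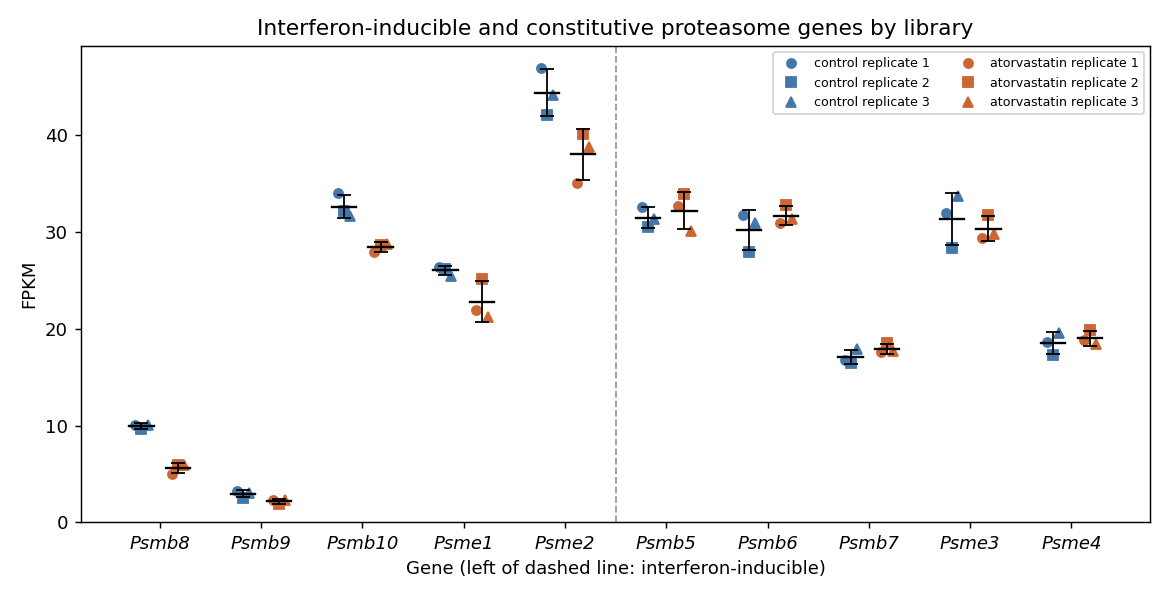
FPKM of the 5 interferon-inducible genes (left of the dashed line) and of 5 constitutive genes in each library, with the 3 control libraries in blue, the 3 atorvastatin libraries in orange, the group mean as a bar and the SD as whiskers. The atorvastatin points of Psmb8, between 5.04 and 5.95, lie below all control points, and the groups of Psmb5, Psmb6, Psmb7, Psme3 and Psme4 overlap.

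The constitutive subunits that these 3 replace did not pass, and their point estimates were above 0. Psmb5, the chymotrypsin-like subunit, had 32.6, 30.5 and 31.4 FPKM in the controls and 32.7, 33.9 and 30.1 FPKM with atorvastatin (log2 fold change 0.03, 95% interval -0.11 to 0.17). Psmb6, the caspase-like subunit, had 31.8, 27.9 and 30.9 FPKM in the controls and 30.9, 32.8 and 31.4 FPKM with atorvastatin (0.07, -0.08 to 0.22). Psmb7, the trypsin-like subunit, had 16.8, 16.5 and 17.9 FPKM in the controls and 17.6, 18.5 and 17.7 FPKM with atorvastatin (0.07, -0.05 to 0.19). The groups overlapped for each of these 3 genes, and each interval spans 0. Exons of Psmb7 overlap those of Nek6 on the other strand by 405 bases, and Nek6 was at 4.27 to 5.92 FPKM.

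Within each library, the share of the inducible gene in the summed FPKM of its pair was lower with atorvastatin in all 3 pairs. Psmb8 made up 23.6%, 23.9% and 24.4% of Psmb8 plus Psmb5 in the controls and 13.3%, 14.8% and 16.5% with atorvastatin. Psmb9 made up 9.17%, 8.36% and 9.02% of Psmb9 plus Psmb6 in the controls and 6.88%, 5.38% and 6.87% with atorvastatin. Psmb10 made up 66.9%, 66.1% and 63.9% of Psmb10 plus Psmb7 in the controls and 61.2%, 60.7% and 62.0% with atorvastatin. The groups did not overlap in any pair, and the pairs stood at very different levels: the inducible gene was the lower partner in the Psmb8 and Psmb9 pairs and the higher partner in the Psmb10 pair, in all 6 libraries. These levels depend on the gene lengths used for FPKM, which are not given. In GENCODE M21 the lower partner has the longer joined exons in each pair. They span 3381 bases for Psmb8 and 899 for Psmb5, 3660 for Psmb9 and 1872 for Psmb6, and 1705 for Psmb10 and 3421 for Psmb7.

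The log2 ratio of the inducible to the constitutive gene changed by -0.76 for Psmb8 to Psmb5, by -0.39 for Psmb9 to Psmb6 and by -0.26 for Psmb10 to Psmb7. Because each ratio is taken within a library, differences in scaling between libraries cancel, apart from the pseudocount. An exact two-sided permutation test over libraries gave p = 0.1 for each, which is the smallest value that 3 libraries against 3 allow, and the adjusted p over the 3 pairs was 0.1. No pair could therefore pass at 0.05 in this design.

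**Figure D2:**
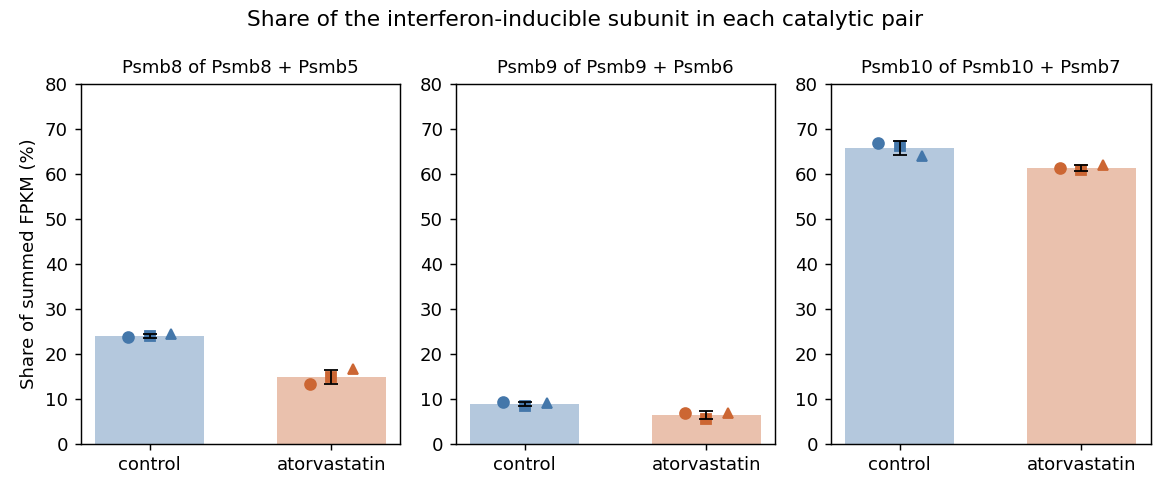
Share of the interferon-inducible gene in the summed FPKM of each catalytic pair, in percent, with bars for the group means, points for the 3 libraries of each group and whiskers for the SD. The mean share was 24.0% in control and 14.9% with atorvastatin for Psmb8, 8.85% and 6.38% for Psmb9, and 65.6% and 61.3% for Psmb10. The level of each share depends on the gene lengths used for FPKM.

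The start regions of the catalytic genes were searched for the letters of 3 regulatory motifs, because the estimates of the inducible and the constitutive genes had opposite signs. The search covered the 250 bases before each start in RefSeq (build GRCm38.p6), which had an entry for 32 of the 38 genes and for 5 of the 6 catalytic ones, all but Psmb7. The motifs were an IRF-type motif (GAAA, any 2 bases, GAAA), bound by interferon regulatory factors, a GAS-type motif (TTCNNNGAA), bound by STAT factors, and an ARE-type motif (TGANNNNGC), bound by CNC factors such as NRF1, each read on both strands. The catalytic genes gave the following matches, shown as 30 bases each on the gene's own strand with the match in capitals, and no match overlapped another.
Psmb8, GAS-type, chr17:34198088-34198117, plus strand: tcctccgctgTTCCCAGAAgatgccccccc
Psmb9, ARE-type, chr17:34187371-34187400, minus strand: ccttgcgcgaTGATGGGGCggggcctcagt
Psmb5, ARE-type, chr14:54618023-54618052, minus strand: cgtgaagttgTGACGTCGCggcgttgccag
Psmb6, ARE-type, chr11:70525327-70525356, plus strand: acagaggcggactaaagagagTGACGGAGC
The GAS-type match of Psmb8 lay 97 to 89 bases before the RefSeq start, in a stretch that GENCODE M21 also annotates as an exon of another Psmb8 transcript.

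The GAS-type letters were found in 1 of the 32, Psmb8, a share below the 7.02% of all 32851 such windows, so the members held no excess of them. The IRF-type letters were found in 2 of the 32, Psmb3 and Psmd4, and in none of the 5 inducible genes, against 2.98% of all windows. The ARE-type letters were found in 11 of the 32, a share near the 35.2% of all windows. A match is a run of letters and not a measured binding site, and the absence of one says only that these letters are not in this window.

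Psmb8 and Psmb9 lie in the MHC region next to Tap1 and Tap2, which encode the transporter that carries proteasome peptides into the endoplasmic reticulum. In the order Psmb9, Tap1, Psmb8 and Tap2, the block spans 34181987 to 34216321 on chromosome 17 (GRCm38). The RefSeq starts of Psmb9 and Tap1 face away from each other with 225 bases between them. Tap1 had 5.69, 5.32 and 4.97 FPKM in the controls and 2.93, 3.13 and 3.39 FPKM with atorvastatin, and fell by 0.61 ± 0.07 on the log2 scale (limma adjusted p = 0.0239). Tap2 had 7.40, 6.88 and 6.77 FPKM in the controls and 4.71, 5.51 and 4.28 FPKM with atorvastatin (-0.46 ± 0.09, adjusted p = 0.0841 by limma).

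All 4 genes of the block were lower in every atorvastatin library than in any control library, as were 6.05% of all genes tested, and 2 of them passed, where 0.249% of all genes tested were called lower. On leaving out 1 library at a time, Tap1 passed in 1 of 6 fits and Psmb8 in 5 of 6. The 95% interval of Psmb9, -0.54 to -0.10, overlapped that of Tap1, -0.77 to -0.44, and that of Tap2, -0.67 to -0.26, and ended just short of that of Psmb8, -0.89 to -0.56. The differences between these genes were not tested. Gm20496, an antisense transcript that overlaps exons of Psmb8 by 498 bases, was at 0.0576 to 0.0992 FPKM in the controls and listed at 0 in the atorvastatin libraries.

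**Figure D3:**
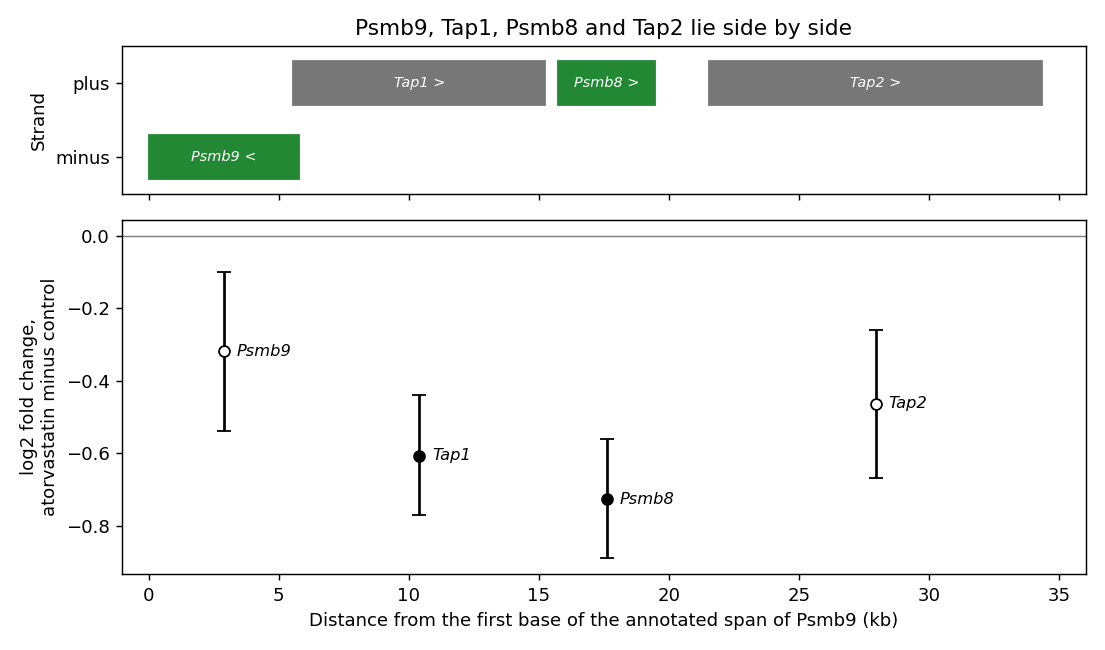
Annotated spans of Psmb9, Tap1, Psmb8 and Tap2 by strand (upper panel, distance in kb from the first base of the span of Psmb9) and their log2 fold changes with 95% intervals (lower panel, filled where the gene passed). All 4 estimates lie below 0, from -0.32 for Psmb9 to -0.73 for Psmb8.

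Both subunits of PA28 had estimates below 0, nearer to 0 than that of Psmb8, and neither passed. Psme1 (ENSMUSG00000022216, chromosome 14, 55578123 to 55581529, plus strand) had 26.4, 26.2 and 25.5 FPKM in the controls and 22.0, 25.2 and 21.2 FPKM with atorvastatin. Psme2 (ENSMUSG00000079197, chromosome 14, 55587441 to 55591113, minus strand) had 47.0, 42.1 and 44.2 FPKM in the controls and 35.1, 40.2 and 38.8 FPKM with atorvastatin. In both genes atorvastatin replicate 2 came nearest to the controls, and the groups did not overlap.

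The log2 fold changes were -0.19 ± 0.07 for Psme1 (95% interval -0.35 to -0.02) and -0.22 ± 0.07 for Psme2 (-0.38 to -0.06), with limma adjusted p-values of 0.357 and 0.275. Reads of Psme2 cannot be told with certainty from those of its retrocopy Psme2b, which had 12.0, 9.93 and 11.2 FPKM in the controls and 8.28, 10.7 and 8.38 FPKM with atorvastatin. Of the other activators, Psme3, which encodes the nuclear activator PA28 gamma, had 32.0, 28.4 and 33.7 FPKM in the controls and 29.4, 31.8 and 29.8 FPKM with atorvastatin. Psme4, which encodes the activator PA200, had 18.6, 17.3 and 19.6 FPKM in the controls and 18.8, 19.9 and 18.4 FPKM with atorvastatin. The groups of these constitutive activators overlapped, with log2 fold changes of -0.04 (95% interval -0.21 to 0.13) and 0.04 (-0.10 to 0.19).

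None of the other core subunits passed. The 7 alpha ring genes, whose products form the gate and the surface on which the caps sit, had log2 fold changes of -0.07 to 0.06, with 5 above 0. Those with the smallest p were Psma7, at 17.3, 17.2 and 17.6 FPKM in the controls and 18.2, 18.2 and 18.0 FPKM with atorvastatin, and Psma4, at 30.5, 29.4 and 31.1 against 29.3, 29.6 and 27.8 FPKM. Psma7 was higher in every atorvastatin library than in any control library, as were 12% of all genes tested, and the groups of Psma4 overlapped. The 4 non-catalytic beta ring genes were all above 0, at 0.03 to 0.05. Psmb4 had 45.4, 42.3 and 44.2 FPKM in the controls and 44.6, 46.7 and 45.1 FPKM with atorvastatin. Psmb1, the most abundant of the 38 genes, had 92.6, 97.6 and 93.3 against 97.3, 95.9 and 98.7 FPKM. Both overlapped between the groups.

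The genes of the regulatory particle did not pass either. Among the 6 ATPase genes, whose products unfold the substrate and drive it into the core, log2 fold changes ran from -0.08 to 0.09. The smallest p-values were those of Psmc1, at 47.2, 43.0 and 48.5 FPKM in the controls and 49.1, 50.3 and 47.8 FPKM with atorvastatin, and Psmc4, at 28.9, 26.8 and 29.2 against 25.0, 29.5 and 25.8 FPKM. The groups of both overlapped, and their estimates, 0.09 and -0.08, had opposite signs. Among the 11 non-ATPase genes, which include the ubiquitin receptor Psmd4 and the deubiquitinase Psmd14, estimates ran from -0.07 to 0.20, with 9 above 0.

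Psmd8, a subunit of the lid of the regulatory particle, had the highest estimate of the 38 genes. It was at 19.6, 18.9 and 19.0 FPKM in the controls and 23.3, 23.9 and 19.4 FPKM with atorvastatin, so that 2 of the 3 atorvastatin libraries lay above all controls and the other within them. The log2 fold change was 0.20 ± 0.08 (95% interval 0.01 to 0.39), with an unadjusted p of 0.0426 and a limma adjusted p of 0.397, where 7.75% of all genes tested were higher at an unadjusted p under 0.05. Psmd14, which removes ubiquitin chains as the substrate enters, had 20.5, 19.1 and 20.6 FPKM in the controls and 21.0, 23.6 and 21.2 FPKM with atorvastatin (0.12 ± 0.06, adjusted p = 0.519 by limma). Its groups did not overlap, as for 12% of all genes tested in that direction.

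Across the 33 genes other than the inducible ones, 26 log2 fold changes were above 0 and 7 below, where 57.3% of all genes tested were above 0. The split depended on scaling, with 25 above 0 under median-ratio scaling and 23 under upper-quartile scaling, and on single libraries, with 21 above 0 without control replicate 2 and also 21 without atorvastatin replicate 2. The 95% intervals of 32 of the 33 included 0. Over the 33 genes the lowest lower limit was -0.25 and the highest upper limit 0.39.

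**Figure D4:**
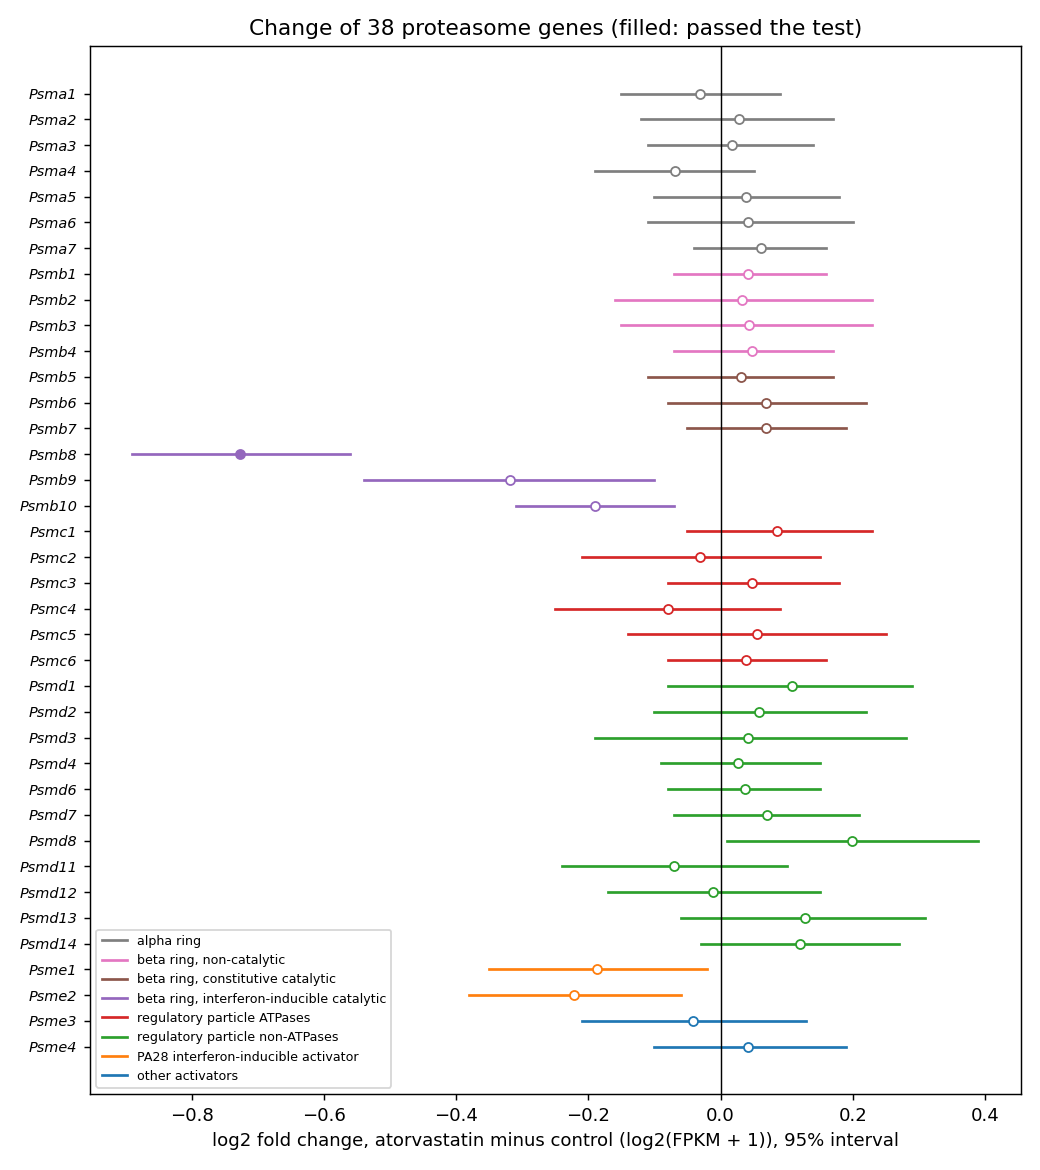
log2 fold change, atorvastatin minus control, of the 38 genes on the log2(FPKM + 1) scale with 95% intervals, coloured by the part of the complex, and filled where the gene passed. Psmb8 at -0.73 is the one filled point, the inducible Psmb9, Psmb10, Psme1 and Psme2 lie between -0.32 and -0.19, and the other 33 lie between -0.08 and 0.20.

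The 33 genes also varied from library to library within the groups. Control replicate 2 had the lowest of the 6 values in 25 of the 33 genes, and atorvastatin replicate 2 the highest in 25. Centred on each gene's mean, the median log2 FPKM of the 33 genes was -0.084 in control replicate 2 and 0.083 in atorvastatin replicate 2, and between -0.027 and 0.027 in the other 4 libraries. In control replicate 2, where the 33 were low, all 5 inducible genes were above their own mean over the 6 libraries. In atorvastatin replicate 2, where the 33 were high, 4 of the 5 were below their own mean, all but Psme1. Because the groups of these 5 genes did not overlap, this largely restates the difference between the groups. Within the groups they followed the library pattern in part. Control replicate 2 was the lowest control for Psmb8, Psmb9 and Psme2, but not for Psmb10 or Psme1. Atorvastatin replicate 2 was the highest of its group for Psme1 and Psme2, but not for Psmb8, Psmb9 or Psmb10.

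**Figure D5:**
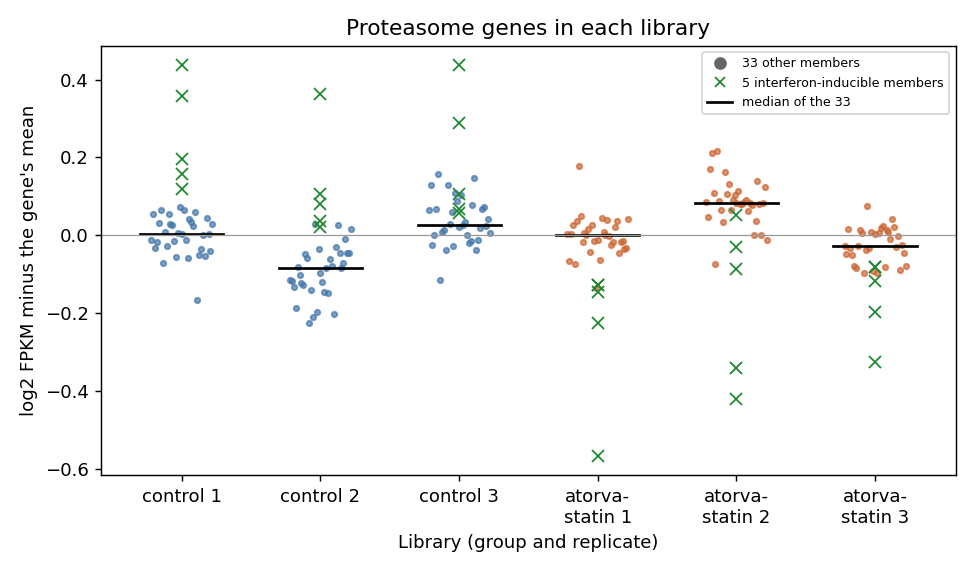
log2 FPKM of each gene minus its mean over the 6 libraries, by library, for the 33 constitutive genes (circles, blue for control and orange for atorvastatin, black line for their median) and the 5 interferon-inducible genes (green crosses). The median line is lowest in control replicate 2, at -0.084, and highest in atorvastatin replicate 2, at 0.083, and the crosses lie mostly above 0 in the controls and below 0 with atorvastatin.

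The levels of the subunits differed although the complex holds them in equal numbers. In control, the 14 core subunits other than the inducible ones ran from 14.4 FPKM for Psma3 to 94.5 FPKM for Psmb1, a ratio of 6.58. The 6 ATPase genes ran from 13.7 FPKM for Psmc2 to 58.4 FPKM for Psmc5, and the 11 non-ATPase genes from 7.93 FPKM for Psmd11 to 40.4 FPKM for Psmd2. Ranked by control level among the 38, Psmb8 was number 36 and Psmb9 number 38, while Psmb10 was number 13 and Psme2 number 6. The order depends on the gene lengths used for FPKM, which are not given in the sources used here. With atorvastatin Psmb8 was number 37, Psmb10 number 18 and Psme2 number 10.

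None of 27 tested genes that assemble, tag for or regulate the proteasome passed in either direction. These were 8 assembly chaperones, 7 associated subunits and regulators, 6 genes of the NRF1 pathway, which raises proteasome genes when proteasomes are inhibited, and 6 ubiquitin and ubiquitin-activating genes, with estimates of -0.15 to 0.12 and 15 above 0. By limma's unadjusted p under 0.05, 1 was lower, where 4.27% of all genes tested were, and none was higher. Pomp, the chaperone that matures new core particles and the immunoproteasome in particular, had 8.05, 8.31 and 7.85 FPKM in the controls and 7.93, 8.74 and 8.13 FPKM with atorvastatin. Nfe2l1, which encodes NRF1, had 12.7, 12.5 and 15.2 against 12.6, 12.4 and 11.6 FPKM.

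The groups of Pomp and of Nfe2l1 overlapped. The same held for Psmf1, an inhibitor of the core, at 3.33 to 3.66 FPKM in the controls and 3.59 to 3.77 FPKM with atorvastatin. It held also for the deubiquitinase gene Usp14, at 8.92 to 9.64 and 8.68 to 9.54 FPKM, and for the ubiquitin receptor gene Adrm1, at 6.66 to 8.31 and 6.97 to 7.63 FPKM.

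In the list of interferon control and class I loading genes, 4 of 8 passed, all lower, where 0.249% of all genes tested were called lower, and all 8 estimates were below 0, with a median of -0.536. Earlier results of these data were known when the list was made, so its direction is no independent evidence. Nlrc5, the transactivator of class I genes and of Psmb9, had 2.53, 2.30 and 2.05 FPKM in the controls and 0.664, 0.907 and 0.906 FPKM with atorvastatin (log2 fold change -0.85 ± 0.09, limma adjusted p = 0.021). Nlrc5 reached 1 FPKM in the controls only, so it entered the test through the group where it was high, and its call is no independent support. B2m, the light chain of class I, had 420, 438 and 356 against 274, 254 and 254 FPKM (-0.63 ± 0.09, adjusted p = 0.0428). The groups of both genes lay apart. Irf1, the interferon regulatory factor known to drive Psmb9, had 31.5, 33.9 and 37.8 against 31.4, 30.2 and 30.3 FPKM, and did not pass (-0.16 ± 0.07, adjusted p = 0.441).

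The calls in this list changed with the library left out. So did the count of calls over all genes tested, 47 with all libraries. It was 2 without control replicate 1 and 67 without control replicate 3. Without control replicate 1 or 2, or without atorvastatin replicate 1 or 3, none of the 8 passed. Nlrc5 could not be tested with a control left out, because too few libraries then reached 1 FPKM. Without control replicate 3, 2 passed, without atorvastatin replicate 2, 3 passed, and with no filter on low values none did. The direction of Nlrc5, Tap1 and B2m was the same in all alternatives that could be run.

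The estimates of leukocyte markers were below 0, as were those of the inducible subunits. Of 20 leukocyte markers, 10 were high enough to be tested, all 10 estimates were below 0, with a median of -0.457, and none passed in limma's test (8 were lower at an unadjusted p under 0.05, as were 4.27% of all genes tested). Their summed FPKM was 36.5, 39.1 and 21.9 in the controls and 16.1, 16.6 and 18.3 with atorvastatin. Ptprc, which encodes CD45, was at 1.81, 1.98 and 1.15 against 0.688, 0.824 and 1.17 FPKM, and Cd3e, of the T cell receptor complex, at 0.956, 0.883 and 0.488 against 0.374, 0.358 and 0.409 FPKM. Gzmb, of cytotoxic lymphocytes, was at 7.47, 7.58 and 3.93 against 2.73, 3.19 and 3.38 FPKM, and Nkg7 at 2.86, 1.98 and 1.90 against 1.04, 1.19 and 1.46 FPKM.

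The summed level was lowest among the controls in control replicate 3. Among the interferon and class I genes named above, that library was the lowest control for B2m, Nlrc5, Tap1 and Tap2. Their levels there were 356, 2.05, 4.97 and 6.77 FPKM, and Irf1, at 37.8 FPKM, was highest there. Of the inducible genes, Psmb10 (31.7 FPKM) and Psme1 (25.5 FPKM) were lowest among the controls in control replicate 3. Psmb8 (10.1 FPKM), Psmb9 (3.06 FPKM) and Psme2 (44.2 FPKM) were not, and their lowest control was replicate 2. Of the defining markers, the B cell genes Cd79a and Ms4a1 were at 0.0141 to 0.375 FPKM over the 6 libraries, and the mast cell gene Cpa3 was at 0.14 to 0.267 FPKM in the controls and listed at 0 with atorvastatin. The part of these cells in the inducible subunits was not tested. The mitochondrial ribosomal RNA mt-Rnr1, which did not pass, was at 2156, 2631 and 1828 FPKM in the controls and 1195, 1160 and 1526 FPKM with atorvastatin, and its part was not tested.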

How the data were processed

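RNA of colon epithelial cells was sequenced in 6 libraries, 3 per group, and each was deposited as 1 table of FPKM per Ensembl gene, a unit read from the values, which are not whole and sum to neither equal totals nor a fixed sum, because the headers name only the library. The authors used FastQC 0.11.2, Bowtie (version not given) and the mouse build mm10, per the submitters' processing notes. The quantifier, annotation, strand setting and handling of multi-mapped reads are not given in the sources used here, and the depth of each library is unknown. From the commonest low value of short genes, relative depth was 0.996 to 1.14, highest in control replicate 3.

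A gene was tested where 3 or more of the 6 libraries reached 1 FPKM, which held for 11644 genes. log2(FPKM + 1) was fitted with limma 3.58.1 in R 4.3.3 (trend and robust moderation), over both groups of 3 with no covariate, with Benjamini-Hochberg adjustment over all genes tested and a threshold of 0.05. The script was tested on simulated data. Ratios of catalytic pairs were compared with an exact two-sided permutation test. The members and lists were chosen with earlier results of these data known. Values in every library were given for the interferon-inducible genes, their counterparts, the other activators, every called member and the 2 members with the smallest p in each other subgroup, and for set companion and marker genes. Alternatives were other pseudocounts, low-value filters, scalings, no trend, a replicate block and leaving out each library. Gene positions came from GENCODE M21 (GRCm38), and start regions from RefSeq (GRCm38.p6). Values of some listed genes are not reported here.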

Additional observations from a re-analysis of the deposited data

How the results depend on the processing

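The log2 fold change of Psmb8 passed under 13 of 16 alternatives (limma adjusted p 0.0121 to 0.136). It did not with no filter on low values (-0.73, adjusted p 0.136), with the replicate block (-0.73, 0.111) or without control replicate 1 (-0.72, 0.073). Its range was -0.76 to -0.66 on leaving out 1 library. The count of members called lower was 0 with no filter and 0 with the block, and 0 to 1 on leaving out 1 library. Of the 8 interferon control and class I genes, 0 were called with no filter, 2 with the 5 FPKM filter, 2 with no trend, 0 with the block and 0 to 3 on leaving out 1 library. Nlrc5 and Tap1 were untested with the 5 FPKM filter, and Nlrc5 also with a control left out. The 5 inducible genes kept their direction under all alternatives run, Psmb9 being untested at 5 FPKM. Over all genes, 47 were called, 2 with no filter, 1 with the block, and 2 (without control replicate 1) to 67 (without control replicate 3) on leaving out 1 library.

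The replicate numbers did not pair the libraries: deviations of same-numbered libraries correlated at -0.139, -0.106 and 0.0136 across genes. For the 3 pair ratios the block gave an exact p of 0.25 each, the smallest that 3 pairs allow.

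Uncalled genes near 0 changed sign. Psma2 (-0.00022), Psma3 (-0.011) and Psmd4 (-0.0017) did so under upper-quartile scaling. The log2 fold change of Psma3 did so also under median-ratio scaling (-0.0048) and with abundant genes left out (-0.00073). On leaving out 1 library, the ranges were -0.024 to 0.058 for Psma2, -0.017 to 0.036 for Psma3, -0.015 to 0.075 for Psma6, -0.041 to 0.11 for Psmb2, -0.044 to 0.09 for Psmb3, -0.0042 to 0.077 for Psmb5, -0.093 to 0.01 for Psmc2 and -0.028 to 0.12 for Psmc5. They were -0.055 to 0.11 for Psmd3, -0.067 to 0.022 for Psmd12, -0.11 to 0.01 for Psme3, -0.0022 to 0.082 for Psme4, -0.0058 to 0.057 for Pomp, -0.055 to 0.0075 for Usp14 and -0.13 to 0.011 for Adrm1. The cause was not tested. Depth is unknown, so counting error cannot be given, and low genes such as Psmb9 are the least certain.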

Other observations

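The tissue-restricted core subunits were near 0 in these cells. Psma8, the alpha subunit of male germ cells, was at most 0.0323 FPKM and was listed at 0 in the atorvastatin libraries. Psmb11, the catalytic subunit of the thymic cortex, was listed at 0 in all libraries except atorvastatin replicate 2, at 0.00632 FPKM.

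Psme2b, a retrocopy of Psme2, had a log2 fold change of -0.26 (95% interval -0.51 to -0.01, limma adjusted p = 0.403), beside -0.22 for Psme2 itself. Its groups overlapped through atorvastatin replicate 2.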
